A study of Mus musculus with 24 samples.

Results

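Fibronectin and 8 matricellular genes (Fn1, Sparc, Tnc, Postn, Thbs1, Thbs2, Vcan, Spon2 and Cthrc1) were followed in mouse lung after deletion of 3 let-7 microRNA genes. The target was alveolar type 2 (AT2) cells, the surfactant-making cells of the air sacs. These 9 genes were chosen by their symbols out of 24970 unique gene symbols, and each was present in all 4 tables of the series. The series holds 24 poly(A) RNA libraries, which do not keep the strand, in 4 kinds of sample. Control mice had the genotype Sftpc-CreER/+ with R26-tdT/+, a tamoxifen-activated Cre recombinase driven by the surfactant protein C gene and a red fluorescent reporter. Knockout mice carried let7afd-/- on top of those same alleles, and mice of both genotypes were given tamoxifen, so Cre, reporter and tamoxifen were common to all groups. Sorted AT2 cells were taken at 6 days of tamoxifen, and each of the 3 libraries per genotype was a pool of 3 mice. Whole lungs were taken at 6 days of tamoxifen from 3 mice per genotype and at 6 months of booster tamoxifen from 4 mice per genotype. Organoids, AT2 cells grown as small three-dimensional cultures for 14 days in AMM media, came from 2 mice per genotype treated for 6 days. The deletion was directed at AT2 cells, so in whole lung most cells that make matrix were outside the targeted cell type.

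Matricellular proteins are secreted into the extracellular matrix, where they mainly modulate how cells attach, move and respond to growth factors instead of building the scaffold. Fibronectin is the adhesive glycoprotein of the provisional matrix laid down after injury, and cells bind it and assemble it into fibrils through integrins. In the lung, the sources of tenascin-C, periostin, osteonectin (SPARC) and the thrombospondins include fibroblasts, smooth muscle and inflammatory cells, and several are raised in scarring. Let-7 microRNAs destabilise messages that pair with their seed, mostly through sites in the 3′ untranslated region (3′ UTR).

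The 3 deleted microRNA genes lie together on the minus strand of mouse chromosome 13 (GRCm38.p6, RefSeq), and their main mature strands are shown because the shared seed is what a target site pairs with. The seed, bases 2 to 8, is in capitals and is identical in all 3.
let-7a-5p, chr13:48538239-48538260: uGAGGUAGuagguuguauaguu
let-7f-5p, chr13:48537889-48537910: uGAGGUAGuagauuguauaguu
let-7d-5p, chr13:48536078-48536099: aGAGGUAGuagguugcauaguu
The longest GENCODE M21 3′ UTR of each member, 356 to 2104 bases long, was searched for the matching letters.

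None (0) of the 9 genes held the full site CTACCTCA, which 3.19% of 19820 genes searched held, and none (0) held CTACCTC. The shorter site TACCTCA occurred once each in Thbs1 and Spon2, shown with 10 bases on either side and the match in capitals, on the strand of the transcript.
Thbs1, base 1510 of its 2104-base 3′ UTR: atacaaatatTACCTCAtttgttgtgt
Spon2, base 367 of its 541-base 3′ UTR: tgctgtcagaTACCTCAgacctgctgc
A site of any of these kinds was present in 15.5% of all genes searched, in 33.5% of genes with a 3′ UTR in the length class of Thbs1 and in 8.68% of those in the class of Spon2. The class of Thbs1 has no upper limit of length, and Thbs1 lies near its lower end. In the class below it, which holds the 1919-base 3′ UTR of Vcan, the share was 15.8%. A match of letters is a description of the sequence only, and the other 7 members had none in the 3′ UTR searched.

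Values were TPM, transcript abundances per gene length scaled to one fixed sum in every library. Read numbers cannot be had from TPM, and neither sequencing depth nor counting error is known. Between 11814 and 14175 genes reached 1 TPM in a library, and no 2 replicate libraries were identical. In the sorted cells 11 AT2 markers summed to 208000 to 222900 TPM in controls and 138300 to 197700 TPM in knockouts, with 0 of the 11 passing the test. In whole lungs at 6 days they summed to 39930 to 46630 TPM in controls and 20700 to 25180 TPM in knockouts (1 rose and 2 fell), and at 6 months to 23610 to 25440 and 27080 to 33640 TPM (8 rose). The organoids held 16330 to 53720 TPM of those markers in controls and 82880 to 90230 TPM in knockouts (0 of 11 passed). The part of these shifts in the members' values was not tested. Fold changes compare knockout with control on the log2(TPM + 1) scale, which shrinks the change of a low gene, and are given with the standard error (SE) of a limma fit. A gene passed at an adjusted p under 0.05. In these bulk samples, more or fewer cells of a type and more or less RNA per cell cannot be told apart.

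Sparc dominated the group in tissue and in sorted cells. It supplied 68.8% of the members' summed TPM in control lungs at 6 days, 64.9% in control lungs at 6 months and 71.5% in control AT2 cells. In control organoids the order was different, with Thbs1, which encodes the adhesive glycoprotein thrombospondin 1, at 43.5% and Fn1 at 32.9%, ahead of Sparc at 17.2%. TPM are scaled within a library and the 4 tables were tested only within themselves, so the order of levels across kinds of sample is descriptive.

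The genes fell into those high in whole lung and those at least as high in epithelium. Postn, the fibroblast product periostin, was at 300.2 ± 33.6 TPM (SD, n = 3) in control lungs at 6 days, 277.8 ± 14.9 (n = 4) at 6 months, 4.00 ± 1.25 (n = 3) in AT2 cells and listed at 0 in both control organoid libraries. Spon2, spondin 2, a secreted matrix protein that also acts in innate immunity, was at 51.8 ± 3.04 and 27.3 ± 5.85 TPM in control lungs at 6 days and 6 months, but at 0.193 ± 0.187 TPM in AT2 cells and 0.844 ± 0.510 TPM (n = 2) in organoids. These 2 genes, and also Sparc and Vcan, had their lowest lung library above every epithelial library.

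Cthrc1 had the opposite order. Collagen triple helix repeat containing 1, which in scarred lung marks a fibroblast state, was at 19.0 ± 2.27 TPM in control AT2 cells, 26.5 ± 22.5 TPM in organoids, 8.35 ± 1.63 TPM in lungs at 6 days and 6.16 ± 1.05 TPM in lungs at 6 months. All 3 control AT2 libraries lay above all 7 control lungs, whereas the 2 organoid controls, at 42.4 and 10.6 TPM, straddled the AT2 values. Thbs1 was similar in AT2 cells (78.5 ± 35.5 TPM), lungs at 6 days (85.0 ± 38.5) and lungs at 6 months (83.7 ± 16.0), with ranges that overlapped, and was at 224.4 ± 86.3 TPM in organoids.

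Fn1 stood at 197.8 ± 43.7 TPM in control lungs at 6 days, 169.9 ± 56.3 in organoids, 120.6 ± 7.43 in lungs at 6 months and 4.12 ± 2.23 in AT2 cells, and the organoid range overlapped those of the lungs at 6 days. Sparc was at 1459 ± 185 and 967.8 ± 63.6 TPM in control lungs at 6 days and 6 months, 267.7 ± 21.2 in AT2 cells and 88.7 ± 9.02 in organoids, with no overlap between these neighbours. Tnc, tenascin-C, was at 13.8 ± 5.36 TPM in control lungs at 6 days, 5.25 ± 1.02 at 6 months, 4.93 ± 5.08 in organoids and 0.461 ± 0.052 in AT2 cells, and the organoid range held that of the lungs at 6 months. Vcan, the proteoglycan versican, and Thbs2, thrombospondin 2, reached at most 5.12 and 2.00 TPM in any control library.

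**Figure D1:**
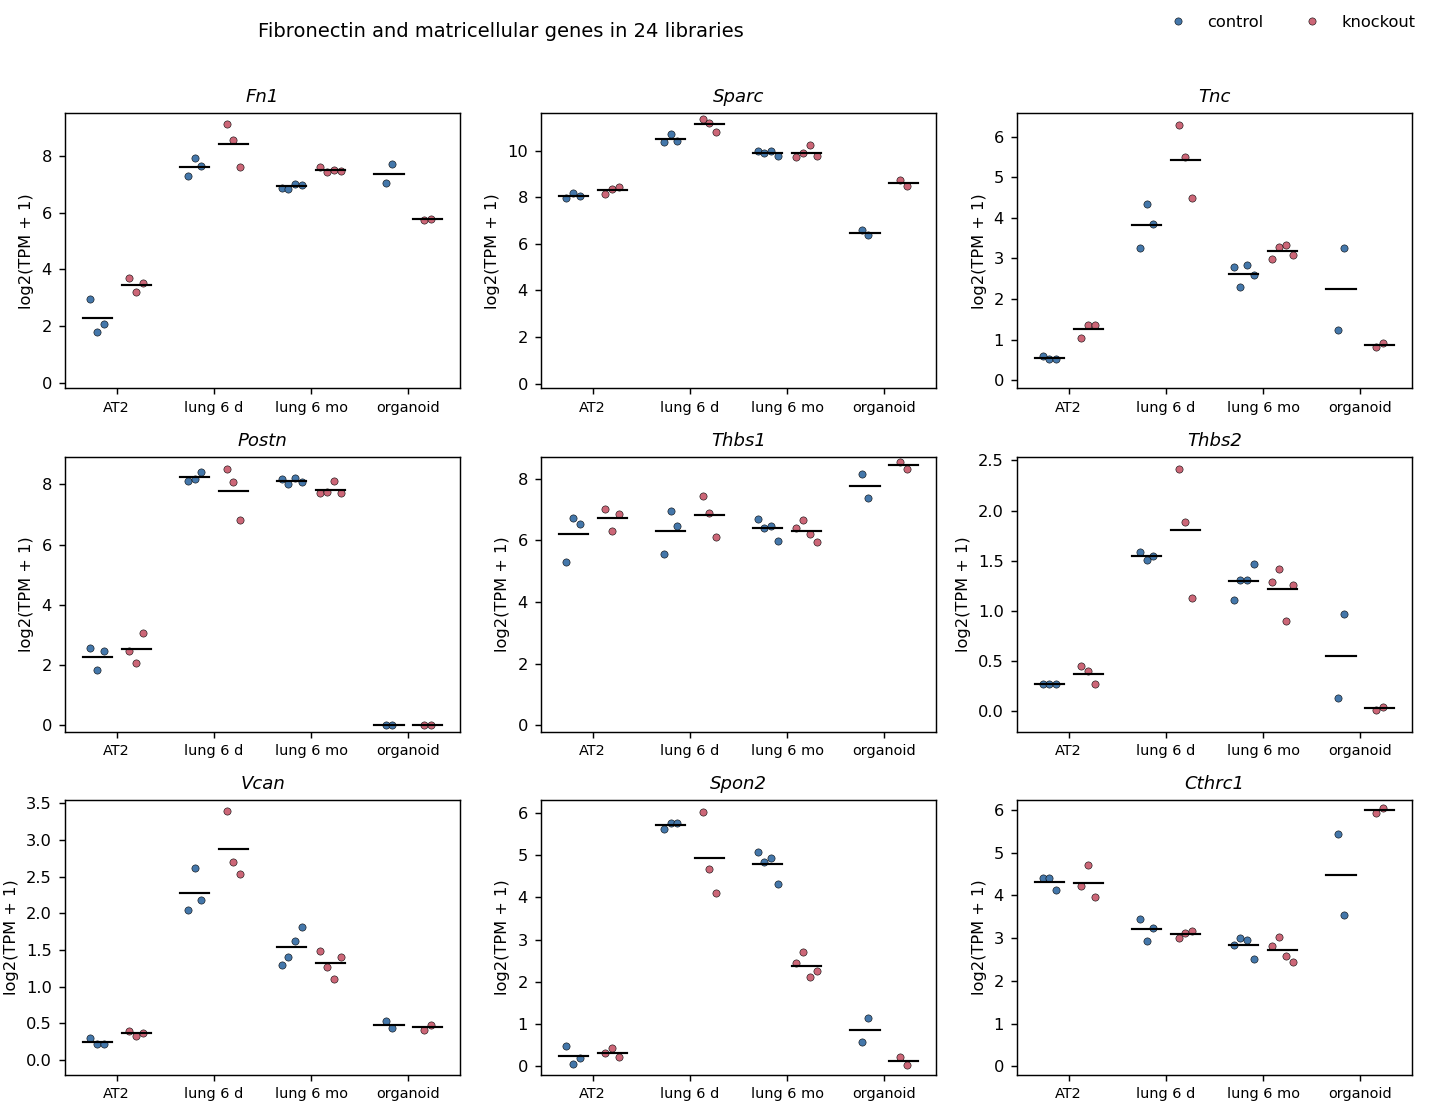
Level of each of the 9 genes in all 24 libraries, on the vertical axis as log2(TPM + 1), by kind of sample; each point is 1 library (blue control, red knockout) and each bar a group mean. Spon2 was near 0 in AT2 cells and organoids and Postn was near 0 in organoids, and the Spon2 knockout lungs at 6 months lay between 3.35 and 5.57 TPM, below every control lung.

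Whole lungs after 6 months of booster tamoxifen had the clearest differences, and all 9 genes passed the filter of 1 TPM there. Fn1 and Tnc rose, Spon2 and Postn fell, and 5 genes did not pass. In that comparison 15.9% of the 14177 genes tested rose and 13.9% fell, so 2 and 2 of 9 members are near the shares of all genes. The median log2 fold change of the 9 members was −0.08, and that of all tested genes was −0.00.

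Spon2 (chr5:33198184-33218455, minus strand, GRCm38) had the widest gap. The 4 control lungs held 32.7, 27.6, 29.7 and 19.1 TPM and the 4 knockout lungs 4.43, 5.57, 3.35 and 3.78 TPM. Every knockout lung was below every control lung, as in 14.2% of genes tested. Its mean fell from 27.3 ± 5.85 to 4.28 ± 0.965 TPM (SD, n = 4), a log2 fold change of −2.41 ± 0.17 (adjusted p 1.57e-06).

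Fn1 (chr1:71585520-71653200, minus strand) was at 117, 112, 127 and 126 TPM in the control lungs and at 196, 169.9, 179 and 178 TPM in the knockout lungs. The groups did not overlap, as in 16.4% of genes tested in the higher direction, and the mean rose from 120.6 ± 7.43 to 180.9 ± 11.1 TPM (0.58 ± 0.06, adjusted p 3.51e-05). Tnc (chr4:63959785-64047015, minus strand), which encodes a large glycoprotein induced at sites of tissue repair, was at 5.92, 3.88, 6.12 and 5.08 TPM in controls and 6.93, 8.67, 9.14 and 7.52 TPM in knockouts. Again no knockout lung overlapped the controls, and the mean rose from 5.25 ± 1.02 to 8.07 ± 1.02 TPM (0.55 ± 0.14, adjusted p 0.0117).

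Postn (chr3:54361109-54391037, plus strand), whose product binds integrins and helps to cross-link collagen, was at 287, 259, 293 and 272 TPM in controls and at 208, 212, 274 and 210.02 TPM in knockouts. Knockout lung 3 was within the control range and the other 3 were below it. The mean fell from 277.8 ± 14.9 to 225.8 ± 32.0 TPM (−0.31 ± 0.09, adjusted p 0.0197). This call was lost when control 3 (adjusted p 0.0541) was left out, and likewise for knockout 1 (0.0598), knockout 2 (0.0556) and knockout 4 (0.0536).

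**Figure D2:**
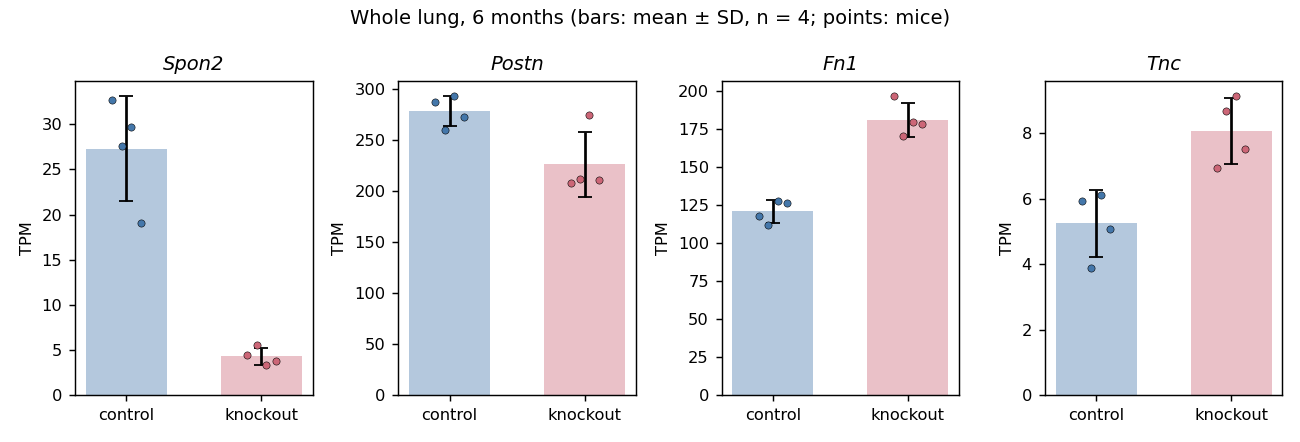
TPM of the 4 genes that passed in whole lung at 6 months, 1 panel per gene with its own vertical axis from 0; bars are means, error bars SD (n = 4) and points single mice. Spon2 was lower and Fn1 and Tnc higher in every knockout mouse than in every control mouse, while 1 knockout mouse had 274 TPM of Postn, inside the control range of 259 to 293 TPM.

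Sparc, a collagen-binding calcium protein, did not differ in these lungs by this test: controls ranged from 888 to 1030 TPM and knockouts from 843 to 1215 TPM, with a 95% interval of −0.22 to 0.22 for its log2 fold change (adjusted p 0.997). Thbs1 (−0.08 ± 0.16), Thbs2 (−0.08 ± 0.15), Cthrc1 (−0.11 ± 0.15) and Vcan (−0.22 ± 0.15, adjusted p 0.340) did not pass either. For all 5 the control and knockout ranges overlapped.

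Several marker lists moved in the same lungs. Of 12 fibroblast markers, 7 fell and 1 rose, and their summed TPM was 2613 to 2647 in controls and 1878 to 2101 in knockouts. Of 10 smooth muscle and pericyte markers, 7 fell (918 to 1179 TPM and 591 to 657 TPM). Of 11 endothelial markers, 10 fell (3389 to 3629 TPM and 2229 to 2532 TPM), and of 6 mesothelial markers, 5 fell (444 to 514 TPM and 336 to 349 TPM). Of 9 alveolar macrophage markers, 7 rose and 1 fell (594 to 841 TPM and 4405 to 7967 TPM), and of 12 monocyte and interstitial macrophage markers, 8 rose. Without Lyz2, which AT2 cells also express, the latter summed to 508 to 693 TPM in controls and 1846 to 2073 TPM in knockouts. Of 12 markers of a Krt8-positive epithelial state, 4 rose and 8 did not pass (908 to 1001 TPM and 1940 to 2241 TPM). Pdgfra, a receptor of alveolar fibroblasts, was at 114.4 ± 14.0 TPM in controls and 56.1 ± 1.78 TPM in knockouts. The part of these shifts in the values of Spon2, Postn, Fn1 and Tnc was not tested.

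At 6 days, 0 of the 9 genes passed in whole lung, against 3.16% of 14154 genes that rose and 3.79% that fell. By limma, 3563 genes had an unadjusted p under 0.05, and Sparc and Tnc were among them. The median log2 fold change of the 9 genes was 0.49 and that of all genes −0.14, a shift that median-ratio scaling of the libraries brought to 0.00. None (0) of the 9 was lower in all knockout lungs than in all controls, as 23.7% of genes tested were.

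Tnc came near the threshold with the largest difference. The control lungs were at 8.63, 19.3 and 13.5 TPM and the knockout lungs at 77.3, 43.9 and 21.5 TPM. All knockouts lay above all controls, as did 12.5% of genes tested, but the knockouts were widely spread, and the log2 fold change was 1.60 ± 0.45 (adjusted p 0.0706). Sparc was at 1346, 1672 and 1359 TPM in controls and 2638, 2374 and 1819 TPM in knockouts, also without overlap (0.63 ± 0.17, adjusted p 0.0635). Both passed after median-ratio scaling (adjusted p 0.0238 for Tnc and 0.0262 for Sparc), when 946 genes rose, against 447 before scaling.

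Fn1 was at 154, 241 and 198 TPM in controls and 563, 373 and 192 TPM in knockouts. Knockout lungs 1 and 2 were above the controls and knockout 3 was among them (0.82 ± 0.36, adjusted p 0.202). Knockout 3 was the library with the most haemoglobin, 12.6% of its TPM against 1.40% to 6.54% in the other 5. Its fibroblast markers summed to 1631 TPM, against 4124 and 2921 TPM in knockouts 1 and 2. The part of either in the members' values was not tested. Without knockout 3, Fn1 (1.23, adjusted p 0.0169), Sparc (0.79, adjusted p 0.0155) and Tnc (2.07, adjusted p 0.0126) passed as higher. Over all genes 1032 then rose, against 447 with all lungs kept.

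Spon2 was at 48.3, 53.2 and 53.8 TPM in controls and 63.6, 24.5 and 16.2 TPM in knockouts, with knockout 1 above and the other 2 below the controls (−0.79 ± 0.42, adjusted p 0.275). Without knockout 1 it passed as lower (−1.33, adjusted p 0.0126), as did 976 genes, against 536 with all lungs kept. Postn (276 to 339 TPM in controls and 111 to 360.3 TPM in knockouts, −0.44 ± 0.38), Thbs1 (45.9 to 123 and 68.3 to 171 TPM, 0.49 ± 0.41), Thbs2 (1.83 to 2.00 and 1.18 to 4.34 TPM, 0.27 ± 0.31) and Vcan (3.13 to 5.12 and 4.82 to 9.47 TPM, 0.60 ± 0.27) all had overlapping groups. Knockout 1 held the highest value of the 6 lungs for Fn1, Sparc, Tnc, Postn, Thbs1, Thbs2, Vcan and Spon2, and knockout 3 the lowest knockout value for the same 8 genes. Cthrc1 did not follow that order, at 7.04, 7.73 and 8.00 TPM in knockouts 1, 2 and 3 (−0.11 ± 0.19, adjusted p 0.739). With library weights 6 members passed as higher and 1 as lower in these lungs, as did 3858 and 4537 of the 14154 genes tested.

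In these early lungs 12 fibroblast markers summed to 3172 to 3461 TPM in controls and 1631 to 4124 TPM in knockouts, and 3 of them fell. Alveolar macrophage markers summed to 1351 to 1610 TPM in controls and 3820 to 13620 TPM in knockouts (4 of 9 rose and 2 fell). Most of that sum was Chil3, at 802 ± 83.5 and 6628 ± 4435 TPM, and the genes that fell were Siglecf and Ear1. Endothelial markers summed to 3335 to 3659 TPM in controls and 1659 to 3311 TPM in knockouts (0 of 11 passed). Mesothelial markers summed to 347 to 412 and 542 to 672 TPM (1 of 6 rose). Markers of a Krt8-positive epithelial state summed to 853 to 1209 and 1864 to 2154 TPM (5 of 12 rose). The 7 cardiac muscle markers, typical of heart and of pulmonary vein muscle, all fell, from 1044 to 1611 TPM to 142 to 286 TPM. Platelets store thrombospondin 1 and fibronectin, and their 8 markers summed to 103 to 109 TPM in controls and 165 to 184 TPM in knockouts. Of these markers 1 rose and 7 did not pass, and in the control organoids they summed to 100.9 and 326.7 TPM. The part of these shifts in the members' values was not tested.

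The change of the knockout effect between 6 days and 6 months did not pass for any member (0 of 9), where 2.38% of 13875 genes had a higher effect and 0.353% a lower effect at 6 months. Spon2 had the largest difference, −1.62 ± 0.45 (adjusted p 0.0988), from −0.79 at 6 days to −2.41 at 6 months. Sparc went from 0.63 to 0.00 (difference −0.63 ± 0.20, adjusted p 0.124) and Tnc from 1.60 to 0.55 (−1.06 ± 0.47, adjusted p 0.336). After median-ratio scaling the differences of Spon2 (adjusted p 0.0281) and Sparc (0.0478) passed, and without knockout lung 3 at 6 days those of Spon2 (0.00930), Sparc (0.0143) and Tnc (0.0382) did. That of Spon2 also passed without knockout lung 1 at 6 days (0.0344).

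**Figure D3:**
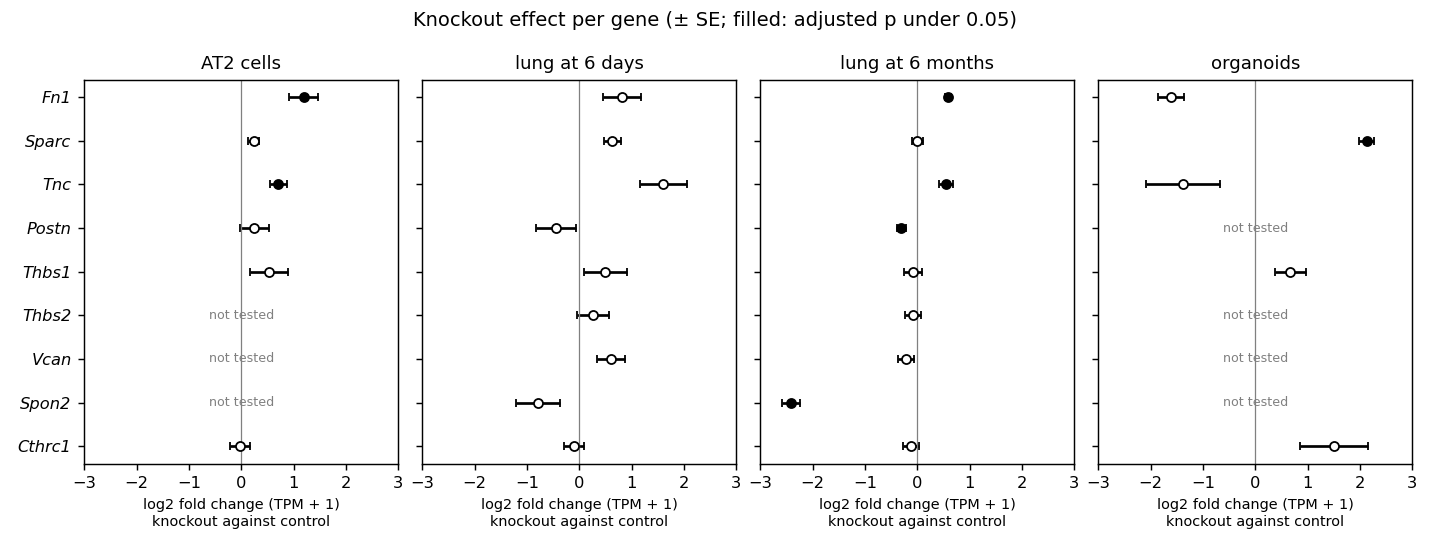
Log2 fold change of TPM + 1, knockout against control, for each gene in the 4 kinds of sample, with SE as the error bar; filled points passed at an adjusted p under 0.05 and genes below the filter are marked as not tested. Fn1 and Tnc lay to the right of 0 in AT2 cells and in both sets of lungs and to the left of 0 in organoids, while Spon2 at 6 months was at −2.41.

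In sorted AT2 cells 6 of the 9 genes passed the filter, and 2 of the 6, Fn1 and Tnc, rose. Over all 12109 genes tested 6.62% rose and 1.22% fell. Of all genes that passed, 84.4% were higher, a share that median-ratio scaling brought to 67.3% and quantile normalization to 65.1%. The median log2 fold change was 0.39 over the 6 members and 0.08 over all genes. Thbs2, Vcan and Spon2 lay below the filter in AT2 cells, with at most 0.399 TPM in any library, and were not tested. None (0) of the 9 genes was lower in every knockout pool than in every control pool, as 8.31% of genes tested were.

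Fn1 was at 6.66, 2.47 and 3.23 TPM in the control pools and 11.8, 8.15 and 10.4 TPM in the knockout pools, without overlap, as in 25.4% of genes tested. The mean rose from 4.12 ± 2.23 to 10.1 ± 1.86 TPM (1.19 ± 0.28, adjusted p 0.0419). Tnc was at 0.520, 0.423 and 0.440 TPM in controls and 1.07, 1.57 and 1.55 TPM in knockouts, also without overlap, and rose from 0.461 ± 0.052 to 1.40 ± 0.283 TPM (0.71 ± 0.17, adjusted p 0.0433). Both levels were far below those of whole lung. The Fn1 call was lost when control 2 (adjusted p 0.137), control 3 (0.121), knockout 1 (0.0960) or knockout 3 (0.120) was left out, and the Tnc call when any single library was (0.0612 to 0.143). Neither passed after median-ratio scaling (0.0633 for Fn1 and 0.0597 for Tnc) or quantile normalization (0.0690 and 0.0628), nor did Fn1 without the filter (0.0922) or without a variance trend (0.0586).

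The 3 abundant members of AT2 cells did not pass. Sparc was at 248, 290.03 and 265 TPM in controls and 281, 326 and 344 TPM in knockouts (0.24 ± 0.11, adjusted p 0.186). Thbs1 varied widely within each genotype, from 38.3 to 106 TPM and from 77.7 to 129 TPM (0.53 ± 0.36, adjusted p 0.373). Cthrc1 was at 19.0 ± 2.27 and 19.1 ± 5.55 TPM (−0.02 ± 0.19, adjusted p 0.957), and Postn was at 4.00 ± 1.25 and 5.04 ± 2.09 TPM (0.25 ± 0.28, adjusted p 0.597).

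Markers of cells outside the sort were also present in these pools. Alveolar macrophage markers summed to 36.2 to 69.0 TPM in controls and 152 to 295 TPM in knockouts (4 of 8 tested rose), and 7 pan-leukocyte markers to 14.5 to 44.8 and 65.9 to 112 TPM (3 rose). Fibroblast markers summed to 140.8 to 172.6 TPM in controls and 164.7 to 256.0 TPM in knockouts, and Gpc3 (19.7 ± 0.775 to 47.3 ± 1.81 TPM) rose of the 8 tested. Most of that sum was Npnt, at 116.7 ± 31.4 and 133.4 ± 41.0 TPM, which also has an epithelial source. The defining collagen genes were near the level of Fn1 or lower, with Col1a1 at 1.87 ± 1.85 and 4.55 ± 0.994 TPM and Col3a1 at 2.27 ± 2.34 and 5.96 ± 0.406 TPM. The part of these cells in the Fn1 and Tnc values was not tested.

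The knockout effect in AT2 cells and that in whole lung at 6 days did not differ by test for any of the 6 members tested in both (0 passed), where 0.705% of 11766 genes were higher and 0.357% lower in AT2 cells. Fn1 had a log2 fold change of 1.19 in AT2 cells and 0.82 in lung, and Tnc one of 0.71 and 1.60. Sparc had 0.24 and 0.63.

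In organoids 5 of the 9 genes passed the filter and 1, Sparc, rose. Among 12406 genes tested, 0.218% rose and 0.387% fell. The median log2 fold change was 0.67 over the 5 members and 0.06 over all genes. Postn, Thbs2, Vcan and Spon2 lay below the filter, with at most 1.205 TPM in any library.

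Sparc (chr11:55394500-55423183, minus strand) was at 95.1 and 82.3 TPM in the control cultures and 424 and 358 TPM in the knockout cultures. Both knockouts were above both controls, as in 39.6% of genes tested. The mean rose from 88.7 ± 9.02 to 391 ± 46.4 TPM (SD, n = 2; 2.13 ± 0.14, adjusted p 0.0317). The call was lost without the filter (adjusted p 0.0647), when 0 genes rose, against 27 with it. Without knockout 1 or knockout 2 the log2 fold change was 2.01 or 2.25. No calls are given for these fits, because the lone knockout is then assumed to vary as the controls did.

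Fn1 was at 130.1 and 209.7 TPM in control cultures and 53.0 and 53.7 TPM in knockout cultures. Both knockouts were below both controls, as in 32% of genes tested, but with 2 cultures per genotype the difference did not pass (−1.61 ± 0.25, adjusted p 0.0649). It passed with library weights (0.0357), when 427 genes fell, against 48 without weights. With control 1 or control 2 left out, its log2 fold change was −1.96 or −1.27. Tnc was at 1.34 and 8.53 TPM in controls and 0.753 and 0.875 TPM in knockouts (−1.38 ± 0.71, adjusted p 0.221), and control 2 held most of that difference.

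Thbs1 was at 285 and 163 TPM in controls and 374 and 315 TPM in knockouts (0.67 ± 0.30, adjusted p 0.182). Cthrc1 was at 42.4 and 10.6 TPM in controls and 60.0 and 65.5 TPM in knockouts (1.505 ± 0.65, adjusted p 0.172). Control 2 was the higher control for Fn1, Tnc, Thbs2 and Spon2 and the lower one for Sparc, Thbs1, Vcan and Cthrc1. Without control 1 the log2 fold changes were −2.39 for Tnc, 1.07 for Thbs1 and 2.46 for Cthrc1, and without control 2 that of Cthrc1 was 0.55. No calls are given for these fits, because the lone control is then assumed to vary as the knockouts did.

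Fibroblast markers were uneven in the organoids. The 12 summed to 25.1 and 99.5 TPM in control and 80.1 and 90.7 TPM in knockout cultures, and of the 4 that passed the filter none (0) passed the test. Most of the sum was Npnt (19.3 ± 10.4 and 61.2 ± 8.41 TPM), Gpc3 (29.6 ± 36.0 and 16.0 ± 1.34 TPM) and Dcn (13.1 ± 6.20 and 6.66 ± 2.28 TPM), and Col1a1 was at 0.201 ± 0.040 and 1.36 ± 0.053 TPM. Tcf21 and Dpt were listed at 0 in all 4 cultures, Col1a2 and Col3a1 at 0 in both controls and at 0.106 ± 0.023 and 0.017 ± 0.024 TPM in knockouts, and Postn at no more than 0.0226 TPM. The sums of club and ciliated cell markers and of AT2 markers did not overlap between the genotypes, but few of these genes passed. Club and ciliated cell markers summed to 8527 and 11950 TPM in control cultures and 2284 and 2661 TPM in knockouts (1 of 7 tested fell). AT2 markers summed to 16330 and 53720 TPM in controls and 82880 and 90230 TPM in knockouts (0 of 11 passed). The part of these epithelial marker levels in the Fn1 and Sparc values was not tested.

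**Figure D4:**
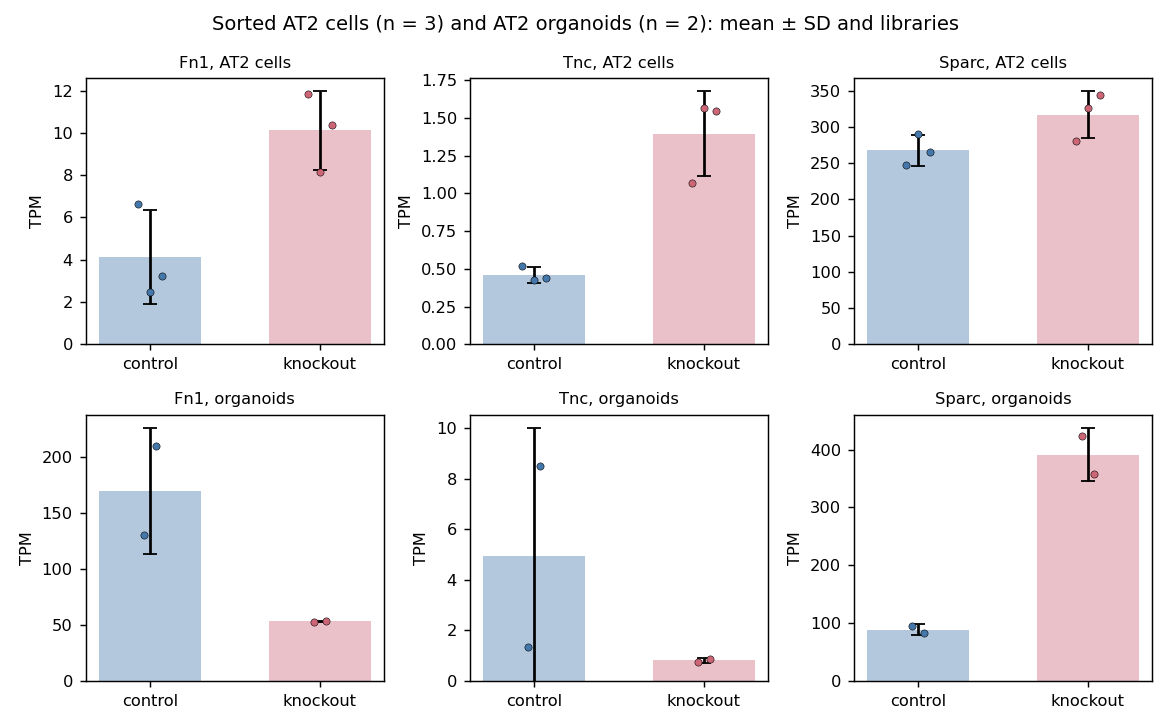
TPM of Fn1, Tnc and Sparc in sorted AT2 cells (top row, n = 3 pools) and AT2 organoids (bottom row, n = 2 mice), with means as bars, SD as error bars and libraries as points; each panel has its own vertical axis from 0, and the SD bar of Tnc in control organoids is cut at 0. Fn1 was higher in every knockout pool of AT2 cells and lower in both knockout cultures, at 53.0 and 53.7 TPM.

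The knockout effects in organoids and in fresh AT2 cells differed for 2 of the 5 members tested in both. Over 11351 genes, 3.22% had a higher effect in organoids and 6.08% a lower one. For Fn1 the difference in log2 fold change, organoids minus AT2 cells, was −2.80 ± 0.37 (adjusted p 0.00174), from 1.19 in AT2 cells to −1.61. For Sparc it was 1.89 ± 0.18 (adjusted p 0.000875), from 0.24 to 2.13. Without organoid knockout 1 or 2 the difference was −2.79 or −2.81 for Fn1 and 1.76 or 2.01 for Sparc. The differences of Tnc (−2.09, adjusted p 0.137), Cthrc1 (1.53, adjusted p 0.205) and Thbs1 (0.13) did not pass. With organoid control 1 or 2 left out, that of Tnc was −3.10 or −1.08, and without organoid control 1 that of Cthrc1 was 2.48. A lone organoid control or knockout was left in the fits without an organoid library, so no calls are given for them.

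Related genes of the same pathways were counted from 5 lists. Over all genes tested, 15.9% rose and 13.9% fell in lungs at 6 months, and 3.16% and 3.79% in lungs at 6 days. These shares were 6.62% and 1.22% in AT2 cells and 0.218% and 0.387% in organoids. Of 36 symbols of other matricellular and matrix glycoprotein genes, 27 were tested in lungs at 6 months, where 7 rose, 7 fell and 13 did not pass (median −0.11, against −0.00 over all genes). Spp1, which encodes osteopontin, rose in every kind of sample: from 29.6 ± 3.10 to 70.2 ± 32.6 TPM in AT2 cells (adjusted p 0.0471), from 164 ± 27.9 to 3561 ± 2259 TPM in lungs at 6 days (0.00323), from 225 ± 35.6 to 1588 ± 445 TPM in lungs at 6 months (4.23e-07) and from 4.45 ± 0.605 to 26.6 ± 3.79 TPM in organoids (0.0316). The organoid call of Spp1 was lost without the filter, when 0 genes rose. Single-gene refits were kept for the members only, so the dependence of its AT2 call on the settings was not examined. At 6 months the matrix genes Matn2 (0.88) and Fmod (0.52) also rose, and the basement membrane gene Ntn4 (−0.39) and the adhesive protein gene Vtn (−0.64) fell.

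In lungs at 6 days 26 genes of that list were tested, 2 rose, 5 fell and 19 did not pass (median −0.28, against −0.14). Tgfbi (1.29) rose with Spp1, and the fibroblast proteoglycan genes Dcn (−1.48) and Lum (−1.11) fell with Nov (−1.26), Smoc1 (−1.29) and Smoc2 (−0.91). In AT2 cells 2 of 16 rose and 0 fell (median 0.19, against 0.08), the second being Ctgf (0.73), a growth factor-binding matricellular protein. In organoids 1 of 15 rose and 0 fell (median −0.12, against 0.06).

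Receptors of these proteins had most calls at 6 months, as did all genes (15.9% rose and 13.9% fell there). Of 18 receptors tested at 6 months, 6 rose, 2 fell and 10 did not pass (median 0.11). Cd44, which binds hyaluronan and osteopontin, rose from 62.2 ± 3.92 to 136.7 ± 16.1 TPM, and the clearance receptor gene Lrp1 (0.43), the integrin gene Itgb5 (0.31) and the syndecan gene Sdc1 (0.33) rose as well. Itga8, whose integrin binds fibronectin and nephronectin, fell at 6 months (−0.61) and at 6 days (−1.28), when it was the only one of 18 receptors to pass. In AT2 cells 0 of 15 and in organoids 0 of 13 receptors passed, with medians of 0.25 and −0.34.

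In lungs at 6 months, where 13.9% of all genes tested fell and 15.9% rose, 12 versican and hyaluronan genes were tested. Of these 7 fell, 0 rose and 5 did not pass (median −0.54, against −0.00 over all genes). They included the hyaluronidase genes Hyal1 (−0.69) and Hyal2 (−0.64), the lymphatic hyaluronan receptor Lyve1 (−0.44) and the versican-cleaving proteases Adamts5 (−0.77) and Adamts9 (−1.11). At 6 days 2 of 14 fell, Lyve1 (−1.24) and Bcan (−1.16), and 0 rose (median −0.05). In AT2 cells 3 of 8 rose, against 6.62% of all genes, and 0 fell (median 0.23, against 0.08 over all genes). The 3 were the mitotic hyaluronan receptor Hmmr (0.84), Adamts9 (0.79) and Adamts1 (0.65). In organoids 0 of 8 passed (median 0.33).

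Of 11 fibrillar collagen genes, 7 were tested in lungs. At 6 months Col3a1 (0.42) and Col5a2 (0.37) rose, Col5a1 (−0.44) fell and 4 did not pass (median 0.04). At 6 days 0 of 7 passed (median 0.30), in AT2 cells 0 of 4 (median 0.85), and the 1 gene tested in organoids, Col1a1, did not pass (0.97). Of 18 genes of the TGF-beta axis, a growth factor pathway that induces fibronectin, 6 rose and 6 fell at 6 months (median 0.00). The latent TGF-beta binding protein gene Ltbp2 (1.02), the receptor gene Tgfbr1 (0.94), Tgfb1 (0.68) and the repressor gene Tgif1 (0.86) rose, and the co-receptor gene Tgfbr3 (−0.58) fell. In AT2 cells 1 of 14 fell, Bambi (−0.73), and 0 rose (median 0.14), and in organoids 0 of 16 passed (median −0.14).

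**Figure D5:**
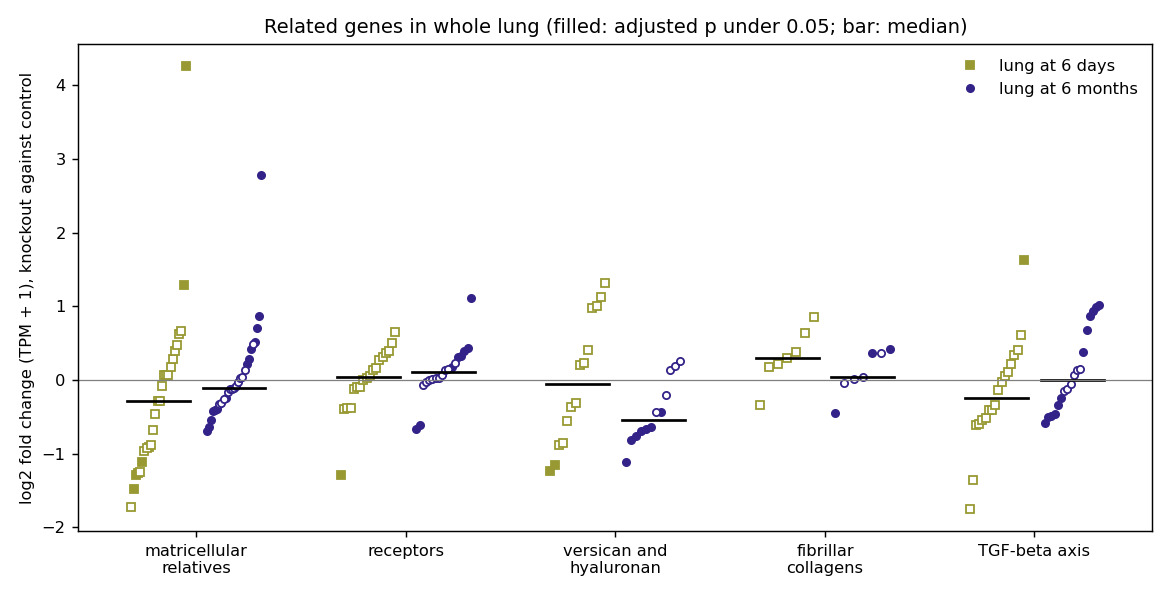
Log2 fold change of TPM + 1, knockout against control, of each tested gene of 5 related lists in whole lung at 6 days (squares) and 6 months (circles); filled points passed at an adjusted p under 0.05 and bars are list medians. The highest points are Spp1 at 4.26 and 2.79, and 7 of 12 versican and hyaluronan genes fell at 6 months, against 13.9% of all genes.

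Genes with the pattern closest to each member were found by the correlation of log2(TPM + 1), centred on the mean of each table, over all 24 libraries. These are the highest of at least 11367 genes compared and share the genotype contrast and the libraries, so they are a description. Spon2 was most like Wnt2 (r = 0.923), Fibin (0.913) and Vgll3 (0.899). At 6 months Wnt2 fell from 21.9 ± 1.34 to 7.96 ± 0.300 TPM, Fibin from 69.3 ± 1.83 to 14.8 ± 1.81 TPM and Vgll3 from 17.5 ± 1.71 to 6.93 ± 0.552 TPM, and all 3 were under 1 TPM on average in AT2 cells and organoids.

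Fn1 was most like Abcc1 (0.916), Ppp1r18 (0.891) and Mgp (0.872), Tnc like Col18a1 (0.883), Cyp7b1 (0.879) and Fbxo6 (0.877), and Sparc like Cyb5r3 (0.927), Arf2 (0.919) and Tmem184c (0.913). Mgp, which encodes matrix Gla protein, an inhibitor of calcification, rose in lungs at 6 days (0.92, adjusted p 0.0497). Its log2 fold changes of 1.56 in AT2 cells, 0.14 in lungs at 6 months and −2.83 in organoids did not pass (adjusted p 0.0592, 0.137 and 0.0740). Postn was most like the microfibril gene Mfap2 (0.909), Zfp366 (0.875) and Cdr2l (0.863), and Cthrc1 like Sfta2 (0.890), Cldn3 (0.885) and Slc39a8 (0.884). The closest genes were less like Thbs1 (Actg1 0.746, Pard6b 0.737 and Lpcat3 0.735), Vcan (Ntmt1 0.766, Hyls1 0.761 and Slc39a14 0.747) and Thbs2 (Pcsk5, Iffo2 and Tiam1, each with r of 0.819 or more). Among the members themselves Fn1 and Tnc had the highest correlation (0.835), and Tnc and Cthrc1 the lowest (−0.629).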

How the data were processed

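Poly(A) RNA was sequenced from 24 mouse libraries with a kit that does not mark strand, per the labels. The authors deposited TPM, 1 table per kind of sample. The submitters' processing notes name GRCm38; for the aligner, the quantification tool and the annotation the answer is: not given in the sources used here. Of 24972 rows, 2 repeats of a symbol were dropped. Depth is unknown. The 9 members, related lists, markers and tests were chosen with earlier results of these data known.

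Each table had its own limma 3.58.1 fit (R 4.3.3) on log2(TPM + 1), genotype as the only term, with a variance trend, two-sided, and Benjamini-Hochberg adjustment over every gene that reached 1 TPM in as many libraries as the smaller group holds. Differences between tables were differences of these fold changes, with both SEs combined. The steps were tested on simulated data. P-values set the genotype difference against the spread between the libraries of a group, moderated over all genes. These libraries are pools of mice in AT2 cells and single mice elsewhere, per the labels. The spread between single mice is therefore not known for AT2 cells.

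Named genes were the members, up to 5 genes per related list with the smallest adjusted p among those that passed, markers where set beside a result, and the 3 genes most like each member (mean of at least 5 TPM). One result that this rule selects is not reported here. Sequences came from RefSeq and 3′ UTRs from GENCODE M21. The fits were repeated with 0.1 as pseudocount, with no filter or one of 5 TPM, under median-ratio or quantile scaling, without the trend, with library weights, with a replicate block, without each library, and for differences with a shared spread.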

Additional observations from a re-analysis of the deposited data

Results flagged for a closer look

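Postn in lungs at 6 months had 1 knockout mouse far from the other 3: knockout 3 was at 273.7 TPM and the others at 207.8 to 211.8 TPM, a gap of 0.940 of the group's range. Of 18 groups of 4 examined for the 9 genes, 1 had such a sample, and chance gives about 1 in 20.

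The knockout effect of 2 genes differed by test between organoids and fresh AT2 cells. For Fn1 the difference of log2 fold changes was −2.80 (adjusted p 0.00174), and for Sparc it was 1.89 (adjusted p 0.000875).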

How the results depend on the processing

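Of 408 member values within tables, 343 kept their direction and their side of the threshold, 24 lost a call, 23 gained one and 18 changed sign. Of 328 values for differences between tables the numbers were 289, 4, 9 and 26. Both sets include fits that left a lone organoid library in a genotype. TPM hold no counts, so the limits set by depth are unknown.

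Members that rose in AT2 cells were 2, but 1 without the filter, at 5 TPM, without a variance trend or with the replicate block, 0 after either scaling, and 0 to 1 with a library left out. The 802 genes that rose were 340 without the filter, 420 after median-ratio scaling, 399 after quantile normalization and 181 to 929 with a library left out, and the 148 that fell were 30, 86 without a trend, and 6 to 285. In lungs at 6 days members that rose went from 0 to 2 after either scaling, 6 with library weights and 0 to 3 with a library left out, and those that fell from 0 to 1 with weights and 0 to 1 with a library left out. The 447 genes that rose were 946, 913, 3858 and 41 to 1032 in that order, and the 536 that fell were 852, 973, 4537 and 51 to 1017, with 323 at 5 TPM and 344 with the replicate block. At 6 months members that fell were 1 to 2 with a library left out, and 53.5% of calls were higher, against 42.5% after quantile normalization.

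In organoids members that rose went from 1 to 0 without the filter and 0 to 3 with a library left out, and those that fell from 0 to 1 with weights or the replicate block and 0 to 3. The 27 genes that rose were 0 without the filter, 67 without a trend, 232 with weights, 122 with the block and 0 to 3739, and the 48 that fell were 0, 116, 427, 277 and 0 to 3228, with 25 after quantile normalization, when 46.8% of calls were higher against 36%. Effects lower at 6 months than at 6 days passed for 2 members after median-ratio scaling and 0 to 3 with a library left out, and those between organoids and AT2 cells for 0 to 2 in each direction.

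The sign changed after median-ratio scaling for Cthrc1 in lungs at 6 days (0.034, and 0.064 after quantile normalization) and for the differences of Postn (6 months minus 6 days, −0.024), Thbs1 and Cthrc1 (AT2 minus lung, −0.20 and −0.14). With a library left out, values crossed 0 for Postn (−0.0098 to 0.48) and Cthrc1 (−0.23 to 0.15) in AT2 cells, Postn (−0.79 to 0.056), Thbs2 (−0.037 to 0.61) and Cthrc1 (−0.24 to 0.011) in lungs at 6 days and Sparc (−0.11 to 0.065), Thbs1 (−0.21 to 0.041) and Thbs2 (−0.15 to 0.024) at 6 months. Among differences they crossed 0 for Fn1 (−0.65 to 0.12), Postn (−0.36 to 0.49) and Cthrc1 (−0.12 to 0.13) between the lungs, Fn1 (−0.042 to 0.73), Thbs1 (−0.41 to 0.42) and Cthrc1 (−0.12 to 0.26) between AT2 cells and lung, and Thbs1 (−0.27 to 0.58) between organoids and AT2 cells. The cause was not tested in any of these.

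The main fits did not pair libraries by replicate number. Deviations of same-numbered libraries had correlations of −0.173 to 0.172 in AT2 cells and −0.154 to 0.00534 in lungs at 6 days. They were 0.0803 to 0.217 in lungs at 6 months and −0.0737 in organoids, where 2 libraries per genotype make both values equal. Libraries with different numbers were not compared, so these values cannot decide whether the numbers pair samples. Under the replicate block Tnc in AT2 cells did not pass (adjusted p 0.0785) and Fn1 in organoids did (0.0391).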
